A study of Mus musculus with 2 samples.

Results

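Conventional CD4 helper T cells, the T cells that carry the CD4 co-receptor and direct other immune cells through cytokines and surface ligands, were described in single-cell RNA sequencing of the tissue behind the mouse retina. The series holds 1 library from mice of genotype IL-17ra fl (flox) and 1 from mice of genotype IL-17RA CKO (knockout), in which the receptor gene for interleukin-17 (IL-17) is conditionally deleted. Mice of both groups received NaIO3 (sodium iodate, an oxidant that damages the retinal pigment epithelium, RPE) at 20 mg/kg body weight into the abdominal cavity. Live CD45+ cells, that is white blood cells, were then sorted from digested RPE and choroid, the vascular layer beneath the RPE. The sources used here do not give the Cre driver and its cell type, the strain, the age or how many animals were pooled, and no library without NaIO3 was analysed here.

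A member was a barcode with at least 1000 UMIs (unique molecular identifiers, tags that count captured RNA molecules), 300 genes and less than 10% mitochondrial UMIs that passed a rule on raw UMIs. The rule asked for at least 2 UMIs of Cd3d, Cd3e and Cd3g together, at least 1 UMI of Cd4, none of Cd8a, Cd8b1, Cd79a or Foxp3 and fewer than 5 of Lyz2. It left out cells with at least 2 UMIs of Ikzf2 together with Ctla4 (regulatory cells). It also left out cells with 2 or more UMIs of Lef1, Dapl1, Igfbp4 and Ccr7 (naive-like cells), and cells with any UMI of Gm4208, Nmnat2, Slc35f3 or Trav11. The rule found 126 of 7400 cells, 59 of 3418 in the flox library and 67 of 3982 in the knockout library.

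Helper T cells recognise peptides on MHC class II through the T cell receptor and pass on help in several ways. CD40 ligand (Cd40lg) licenses B cells and dendritic cells, while RANK ligand (Tnfsf11) and the OX40 receptor (Tnfrsf4) belong to the tumour necrosis factor (TNF) families of activated helper cells. Type 1 helper cells use the factor T-bet (Tbx21) and secrete interferon-gamma, type 17 cells secrete IL-17, and follicular helper cells use Bcl6 and help B cells in lymphoid tissue.

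The libraries were of like depth in these cells, but they differ in Cell Ranger version and possibly in kit version, which cannot be told apart from genotype. The 59 flox members held 387697 UMIs, with a median of 6309 UMIs and 2348 genes per cell. The 67 knockout members held 466448 UMIs, with a median of 6832 UMIs and 2436 genes. The libraries shared 4 barcodes of at least 1000 UMIs, and no member's barcode was among the other library's members. The labels give no sex, but Xist and Y-linked UMIs showed cells of both sexes in both libraries, in unequal mixes: 31 female, 13 male and 15 unassigned flox members against 14, 39 and 14 knockout members. Sex and genotype therefore overlap in part, and values within each sex are given beside the main results. Il17ra, the targeted gene, stood at 51.6 CPM (31.5 to 79.7) in flox members and 79.3 CPM (55.9 to 109) in knockout members. A 3' tag outside the deleted exons checks nothing, and the deleted exons are not known here. CPM is a gene's UMIs per 1000000 UMIs of the cells named. With 1 library per group there is no replicate check and no test, and every 95% interval, in parentheses, covers counting error only.

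Helper cells made up the same share of both libraries within counting error. In flox they were 1.73% of all cells (1.32 to 2.22, Clopper-Pearson) and in knockout 1.68% (1.31 to 2.13). The shares differed by -0.04 points (-0.65 to 0.55). Of the cells with CD3 transcripts they were 4.37% (3.34 to 5.60) of 1350 in flox and 4.17% (3.25 to 5.27) of 1606 in knockout. The class rests on few UMIs of its defining gene: Cd4 had a median of 2 UMIs per member in both libraries, and 25 flox and 25 knockout members had exactly 1. A further 373 flox and 336 knockout T cells had no UMI of Cd4, Cd8a or Cd8b1, so helper cells in which Cd4 was not captured lie outside the class. At the edge toward naive-like cells, 23 flox and 22 knockout members had a sum of 1 for the 4 naive-like genes, and 10 flox and 4 knockout cells fell just outside with a sum of 2. At the edge toward regulatory cells, Ctla4 was present in 38 flox and 39 knockout members, and Ikzf2 (Helios) in 23 and 3. Applied to cells thinned to 2000 UMIs, the rule found 90 flox and 70 knockout cells, and the difference in share was -0.87 points.

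Transcripts known from helper cells were present in most members. At least 1 of Cd40lg, Tnfsf11, Tnfrsf4 and Trat1, none of which the rule used, was present in 53 of 59 flox members (89.8%, 79.2 to 96.2) and in 60 of 67 knockout members (89.6%, 79.7 to 95.7). The same was true of 0.368% and 0.929% of B cells, which should lack all 4 and had median depths of 6170 and 6473 UMIs, and of 10.6% and 25.2% of CD8 T cells. The other CD4 cells also carried these transcripts: Cd40lg was present in 59.2% and 37.5% of regulatory and 62.3% and 52.1% of naive-like cells. Tnfrsf4 was present in 53.1% and 81.3% of regulatory cells, and Trat1 in 46.4% and 54.8% of naive-like cells. Thinned to 2000 UMIs, the shares of members were 72.4% and 76.1%, with 1 flox cell left out as too shallow. Cd40lg, the ligand for CD40, stood at 402 CPM (342 to 471) in flox members and 519 CPM (456 to 588) in knockout, in 42 and 55 cells. Tnfsf11 stood at 204 CPM (161 to 254) and 202 CPM (163 to 247), in 27 and 32 cells. In the 11 flox and 27 knockout members with no UMI of Foxp3, Ikzf2 or Ctla4, the log2 ratio of Tnfsf11, knockout over flox, was 2.10. Cd40lg was thus 1.29-fold higher (1.05 to 1.59), under the 1.5-fold used for calls further on, with 429 and 393 CPM in female and 289 and 601 CPM in male cells. The other markers differed by more. Tnfrsf4, the OX40 receptor, was 3.31-fold lower (2.12 to 5.30) in knockout, at 199 CPM (157 to 248) in flox members and 60.0 CPM (39.9 to 86.8) in knockout members. Trat1, an adaptor of the T cell receptor complex, stood at 36.1 CPM (19.7 to 60.6) and 240 CPM (198 to 289), 6.65-fold higher (3.80 to 12.6). It was present in 8 flox and 31 knockout members. Trdc of gamma-delta T cells and Zbtb16 (PLZF) of innate-like T cells had no UMI in any member. Other gamma-delta markers had 4 UMIs in 3 flox members and 30 UMIs in 6 knockout members.

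**Figure D1:**
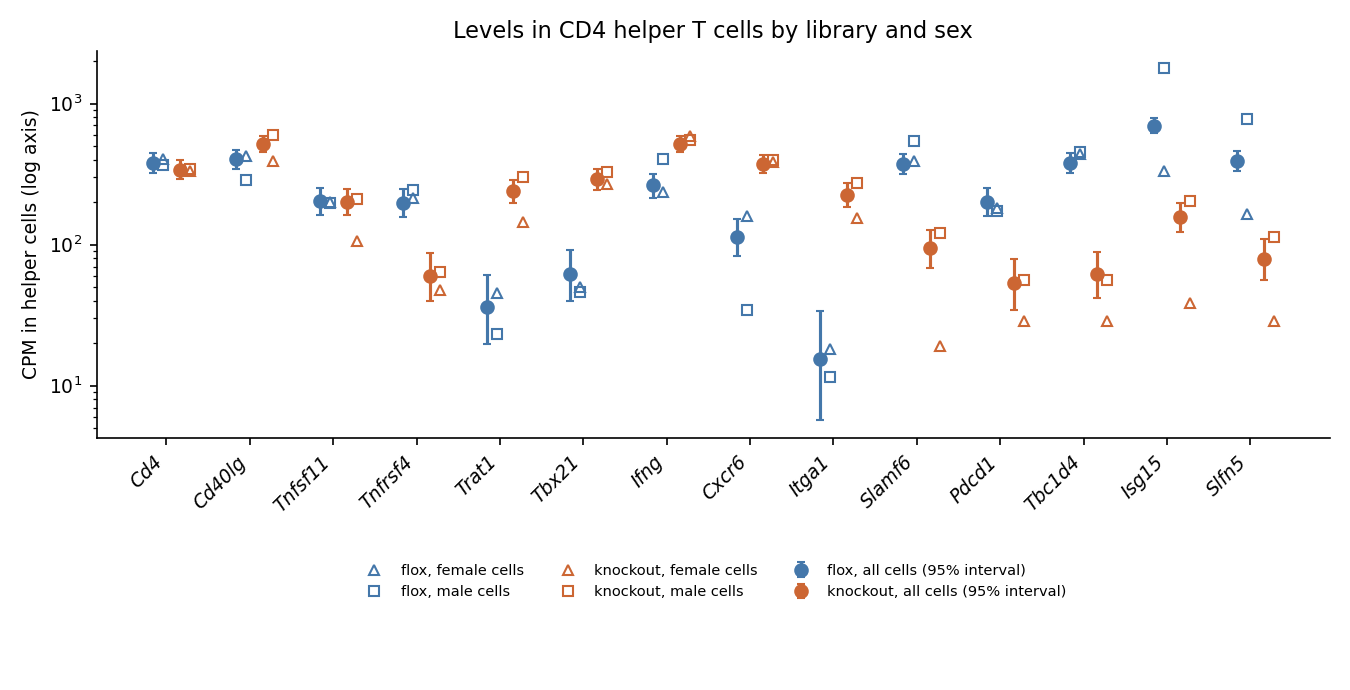
Level of 14 genes in the helper cells, in CPM on a log axis, by gene. Filled circles are all members of a library with their 95% Poisson interval, open triangles its female cells and open squares its male cells, blue for flox and orange for knockout. The filled circles of Cd4, Cd40lg and Tnfsf11 lie close together, Trat1, Tbx21, Cxcr6 and Itga1 lie higher in knockout, and Slamf6, Pdcd1, Tbc1d4, Isg15 and Slfn5 lie lower in knockout, in female and in male cells.

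Set against other T cells of the same library, helper cells differed from CD8 T cells in their ligands and in killer genes, and from other CD4 cells in few genes. A gene was called when the 95% interval of the CPM ratio lay beyond 2-fold the same way in both libraries. Against CD8 T cells (188 flox and 361 knockout), 24 of 3228 genes were higher (0.743%) and 25 lower (0.774%). Cd40lg stood at 402 and 519 CPM in helper cells against 13.0 and 41.7 CPM in CD8 cells, and Tnfsf11 at 204 and 202 CPM against 5.47 and 17.3 CPM. The interleukin-7 receptor Il7r, a survival receptor of resting and memory T cells, stood at 934 and 832 CPM against 180 and 164 CPM. St6gal1 (a sialyltransferase), Cpm (carboxypeptidase M), the growth factor Areg and St8sia1 were among the other genes that were higher. Prf1 (perforin), the chemokine Ccl3 and the lectin receptors Klre1, Klrc1 and Klrc2 were among those that were lower. Prf1 had 2.58 and 6.43 CPM in helper cells.

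Against naive-like CD4 cells (69 and 73 cells), 18 of 3182 genes were higher (0.566%) and 13 lower (0.409%). Ifng, Socs2, Pbx3, Hip1, Pdcd1, Bhlhe40 and the chemokine receptor Cxcr3, which guides T cells to inflamed tissue, were higher. Ifng stood at 263 and 521 CPM in helper against 38.2 and 30.7 CPM in naive-like cells. Satb1 and Bach2 were among those that were lower, at 33.5 and 64.3 CPM against 741 and 972 CPM for Satb1. Against regulatory CD4 cells (49 and 16 cells), only 4 of 3317 genes were higher (0.121%) and 5 lower (0.151%). Those higher were Ccl5, Klrk1, Fasl and Nkg7, and those lower were Dst, Phlpp1, Cd81, Plcb4 and Gem. The rule used regulatory and naive-like genes to set these populations apart, so the contrasts describe the class and support nothing.

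Between the libraries, helper cells of the knockout mice had more RNA of many type 1 genes and of some tissue-retention genes. They had less of interferon-induced and follicular-type genes and of several inhibitory and co-stimulatory receptors. A gene was called when the 95% interval of the knockout over flox ratio lay beyond 1.5-fold, with at least 50 UMIs in all, 50 CPM and a UMI in 10% of cells in the higher library. Of 2905 genes that met the minima, 56 were lower (1.93%) and 43 higher (1.48%), together 3.41%. One of the 56 is Ctla4, which the rule used. Of the lower genes 29, and of the higher genes 20, belong to the gene lists described next. Gene lists are given by the members with at least 20 UMIs in all. Their background is 5540 such genes, of which 43.3% had a log2 ratio below 0 and 56.7% above, with a median of 0.09. A list member counts as called by the interval alone, which lay beyond 1.5-fold downward in 1.59% of these 5540 genes and upward in 1.41%. In sexes taken apart, 54 of 55 lower genes with 10 UMIs were lower in female cells (46.3% of all genes) and 55 of 55 in male cells (43.9%). Of the higher genes, 41 of 43 were higher in female cells (53.7% of all genes) and 40 of 41 in male cells (56.1%). These are the same cells split by sex, so the counts describe and do not replicate.

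**Figure D2:**
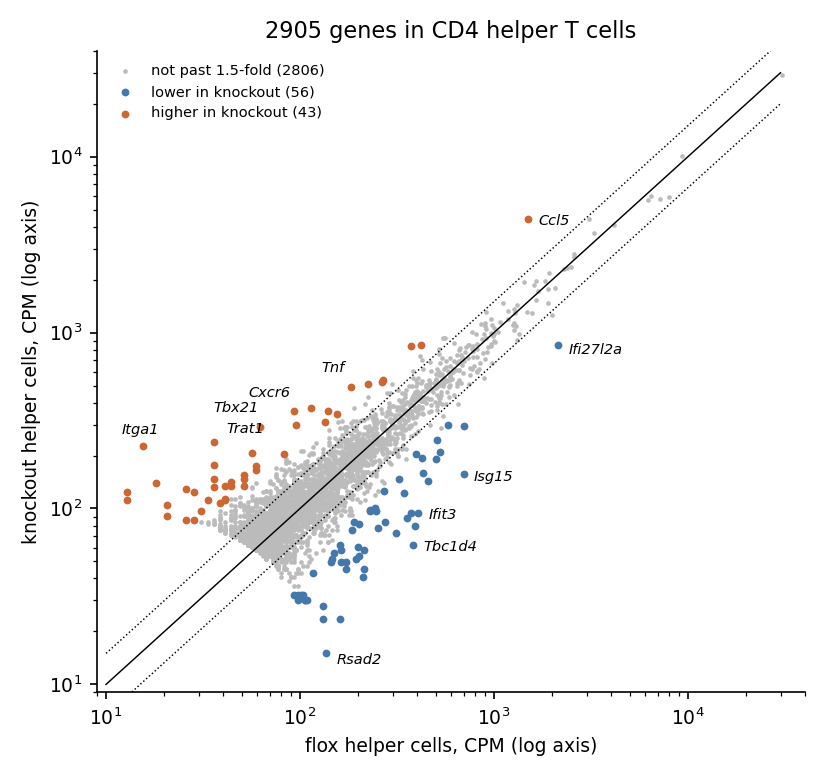
Level of the 2905 genes tested in the helper cells, flox on the x axis and knockout on the y axis, in CPM on log axes. The solid line marks equal levels and the dotted lines 1.5-fold, with 43 genes called higher in knockout in orange and 56 called lower in blue. Itga1 lies farthest above the line at 15.5 and 225 CPM, and Rsad2 farthest below it at 137 and 15.01 CPM.

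Genes of the type 1 helper programme were higher in knockout helper cells. Of 15 measured members 11 were above 0 and 4 below, with a median log2 ratio of 0.72 (all genes 0.09), and 6 passed the 1.5-fold call, all upward. Tbx21, which encodes T-bet, the factor that specifies type 1 cells, stood at 61.9 CPM (39.7 to 92.1) in 14 flox cells and at 292 CPM (245 to 345) in 37 knockout cells. That is 4.71-fold higher (3.04 to 7.60). In female cells Tbx21 stood at 50.1 and 268 CPM and in male cells at 46.2 and 325 CPM. Ifng, encoding interferon-gamma, stood at 263 CPM (215 to 319) in 18 flox cells and 521 CPM (458 to 591) in 39 knockout cells, 1.98-fold higher (1.57 to 2.52). The other called members were the interleukin-12 receptor subunit Il12rb2 (25.8 and 129 CPM), the interleukin-18 receptor subunit Il18rap (43.8 and 141 CPM), Cxcr6 and Ccl5. Cxcr6, a chemokine receptor of tissue T cells, stood at 113 CPM (82.5 to 152) and 373 CPM (320 to 433), in 15 and 41 cells. Ccl5, a chemokine stored by effector T cells, stood at 1501 CPM (1382 to 1628) and 4429 CPM (4240 to 4624), in 19 and 44 cells.

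Some type 1 genes were close in the pooled cells. Cxcr3, the receptor for interferon-induced chemokines, stood at 214 and 202 CPM, but at 269 and 115 CPM in female and 104 and 230 CPM in male cells. Stat4, which relays interleukin-12 signals, stood at 583 and 497 CPM, and Hopx at 281 and 232 CPM. Runx3, with 142 and 240 CPM, and Nkg7, with 423 and 697 CPM, were above 0 without passing the call. Per cell, Tbx21 or Ifng had a UMI in 25 of 59 flox members (42.4%, 29.6 to 55.9) and 48 of 67 knockout members (71.6%, 59.3 to 82.0). Thinned to 2000 UMIs the shares were 31.0% and 58.2%, and in B cells they were 5.70% and 3.14%. The list's direction depended on the regulatory edge of the class. With Foxp3, Ikzf2 and Ctla4 all at 0, which leaves 11 flox and 27 knockout cells, its median was -0.22, with Ccl5 at -0.34 and Nkg7 at -0.50 but Tbx21 at 1.19, Cxcr6 at 1.39 and Ifng at 1.95 (log2 ratios).

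Genes of tissue retention and of effector chemokines were also among those higher in knockout helper cells. The residency list as a whole lay near the background, with 9 of 14 measured members above 0 (56.7% of all genes) and a median of 0.21. Its 5 called members were all higher. Itga1, the collagen-binding integrin CD49a found on resident lymphocytes, stood at 15.5 CPM (5.68 to 33.7) in 5 flox cells and 225 CPM (184 to 273) in 27 knockout cells, 14.5-fold higher (6.46 to 40.5). In female cells Itga1 stood at 18.2 and 153 CPM and in male cells at 11.6 and 276 CPM. P2rx7, the extracellular-ATP receptor, stood at 18.1 CPM (7.26 to 37.2) and 139 CPM (108 to 178), in 7 and 31 cells. Cxcr6 belongs here too, as do Rgs1 (420 and 845 CPM) and Rgs2 (139 and 360 CPM), which dampen signals of chemokine receptors. Cd69, the egress-blocking receptor, stood at 371 and 360 CPM, and Itgae (CD103) had 2 and 10 UMIs, too few to compare. Of 4 measured chemokines 3 were higher, namely Ccl5, Xcl1 (12.9 and 124 CPM, in 2 and 15 cells) and Ccl4 (36.1 and 176 CPM). One knockout cell held 57.3% of the Ccl4 UMIs there, and in female cells flox and knockout cells stood at 59.3 and 19.2 CPM of Ccl4.

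The cytotoxic and effector list had 10 of 11 measured members above 0, a median of 0.72 and 4 members called, all higher. The cysteine protease relative Ctsw stood at 92.9 CPM (65.0 to 129) in 16 flox cells and 358 CPM (306 to 417) in 44 knockout cells. The factor Zeb2, of terminal effector cells, stood at 56.7 CPM (35.6 to 85.9) and 206 CPM (167 to 251), in 8 and 20 cells. The fractalkine receptor Cx3cr1, of circulating effector cells, stood at 28.4 and 85.8 CPM, from few cells in either library. It was present in 2 of 2 flox members with S1pr5, another gene of this list, and in 3 of 57 without. In knockout it was present in 6 of 7 and 2 of 60. The granzyme gene Gzma, the fourth called member, had 8 UMIs in 5 flox cells and 193 UMIs in 6 knockout cells, and Gzmb 15 and 10 UMIs. Markers of natural killer cells, 8 genes that include Gzma, summed to 46.4 CPM in 9 flox cells and 457 CPM in 13 knockout cells. Most of the UMIs of this sum in knockout members were Gzma. Of the 8 genes, Ncr1, Klra8, Klra4, Klra9 and Klre1 were at 0 in flox members and Klra4 and Klra9 at 0 in knockout members. Their part in the result was not tested. With Foxp3, Ikzf2 and Ctla4 at 0 the median of this list was -0.27. Outside the lists, the 12 genes named as higher included Fgl2 (12.9 and 111 CPM), a secreted immunoregulator, and Sytl2 (28.4 and 124 CPM), which tethers secretory vesicles. They also included Gpr171 (36.1 and 148 CPM), Serpinb9 (33.5 and 111 CPM), an inhibitor of granzyme B, and Nebl (43.8 and 135 CPM). In male cells Serpinb9 stood at 92.4 and 84.8 CPM.

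The TNF-family ligands of helper cells did not move together. Of 7 measured members 5 were above 0 and 2 below, with 1 called in each direction. Tnf itself stood at 183 CPM (143 to 231) in 23 flox cells and 491 CPM (429 to 559) in 32 knockout cells, 2.68-fold higher (2.05 to 3.55). The sexes went opposite ways: Tnf stood at 201 and 95.8 CPM in female cells and at 23.1 and 749 CPM in male cells. Tnfsf8 (CD30 ligand), by contrast, stood at 253 CPM (205 to 308) and 77.2 CPM (54.1 to 107), 3.28-fold lower (2.21 to 4.94). Fasl, the death ligand, stood at 121 and 236 CPM and Ltb, a lymphotoxin that shapes lymphoid tissue, at 503 and 542 CPM. Neither passed the call. Il2, the T cell growth factor, had 8 and 22 UMIs.

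Genes shared with follicular helper cells were lower in knockout helper cells. All 6 measured members of the follicular list were below 0, with a median of -1.24, and 3 were called: Slamf6, Pdcd1 and Izumo1r. Slamf6, a self-binding receptor of helper cells and their B cell partners, stood at 374 CPM (316 to 440) in 38 flox cells and 94.3 CPM (68.5 to 127) in 15 knockout cells, 3.96-fold lower (2.81 to 5.69). Pdcd1, encoding the inhibitory receptor PD-1, stood at 201 CPM (159 to 251) and 53.6 CPM (34.7 to 79.1), 3.75-fold lower (2.37 to 6.15). Izumo1r (folate receptor 4) stood at 144 CPM (109 to 188) and 49.3 CPM (31.3 to 74.0). The defining genes of follicular cells were sparse: Bcl6 stood at 77.4 and 57.9 CPM, Cxcr5 had 9 and 1 UMIs and Il21 had 6 and 3. Il21 or Cxcr5 was present in 7 flox members (11.9%) and 3 knockout members (4.48%) (Clopper-Pearson 4.91 to 22.9 and 0.93 to 12.5). B cells, which express Cxcr5, had it in 56.1% and 61.7% of cells.

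Inhibitory and co-stimulatory receptors followed the same direction in part. Of 6 measured inhibitory receptors 5 were below 0 (median -1.45). Those called lower were Pdcd1, Tox, Btla and, by its interval alone, Lag3. The factor Tox, which sustains PD-1 in chronically stimulated T cells, stood at 503 CPM (435 to 579) and 191 CPM (153 to 235). Btla, which binds HVEM, stood at 147 and 51.5 CPM. Lag3 had 19 UMIs in 10 flox cells and 1 UMI in 1 knockout cell. Ctla4, which the rule used, stood at 704 and 294 CPM. Of 12 co-stimulatory receptors 8 were below 0 (median -0.42), with Slamf6, Tnfrsf4 and Cd27 called. Cd27 stood at 173 CPM (134 to 219) and 49.3 CPM (31.3 to 74.0), while Icos stood at 812 and 607 CPM, Cd28 at 508 and 382 CPM and Cd226, an activating receptor, at 165 and 315 CPM.

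Outside the lists, the genes with the lowest ratio were Tbc1d4, a regulator of glucose transporter traffic, and Spry1, a brake on growth factor signalling. Tbc1d4 stood at 382 CPM (323 to 448) in 36 flox cells and 62.2 CPM (41.6 to 89.3) in 18 knockout cells, 6.14-fold lower (4.10 to 9.49). Spry1 stood at 132 CPM (97.9 to 173) and 23.6 CPM (11.8 to 42.2). Gpm6b (214 and 45.02 CPM), Adk (173 and 45.02 CPM), Aff3 (193 and 51.5 CPM), the tetraspanin Cd9 (108 and 30.01 CPM) and Eea1 (273 and 83.6 CPM) were also lower. Some of these genes were also expressed in regulatory CD4 cells, of which the rule found 49 in flox and 16 in knockout. There Tbc1d4 stood at 366 and 344 CPM, Izumo1r at 153 and 471 CPM and Tnfrsf4 at 269 and 544 CPM. Slamf6, at 200 CPM (160 to 248) and 263 CPM (176 to 377), was lower there than in helper cells in flox and higher in knockout. With Foxp3, Ikzf2 and Ctla4 at 0 (11 and 27 cells), Tbc1d4 had a log2 ratio of -2.42, Slamf6 of -1.36 and Pdcd1 of -1.34, each still lower. Izumo1r, Tnfrsf4, Tnfsf8, Gpm6b, Aff3, Cd9 and Eea1 were then at 0.78, 0.60, 2.80, 0.15, 0.20, 0.15 and 0.42.

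Type I interferon drives an antiviral set of genes, and these were lower in knockout helper cells. Both libraries had much of this RNA in few cells: the top 5 cells held 39.4% of the list's UMIs in flox and 42.3% in knockout. Of 34 measured members 33 were below 0, with a median of -0.99 (all genes 0.09), and in 16 the interval lay beyond 1.5-fold, all downward. With the level minima 12 passed. Isg15, a ubiquitin-like modifier, stood at 696 CPM (616 to 785) in 33 flox cells and 157 CPM (123 to 197) in 21 knockout cells, 4.45-fold lower (3.42 to 5.85). Rsad2 (viperin), an antiviral enzyme, stood at 137 CPM (102 to 179) in 17 flox cells and 15.01 CPM (6.03 to 30.9) in 3 knockout cells, 9.11-fold lower (4.13 to 23.8). Ifit3 stood at 408 CPM (346 to 476) in 22 flox cells and 94.3 CPM (68.5 to 127) in 3 knockout cells, and Ifit1, which binds viral RNA, at 312 and 72.9 CPM. Ifit3 and Ifit3b (160 and 23.6 CPM) are near-identical copies, so the split of reads between them is uncertain. Slfn5 (392 and 79.3 CPM), the membrane tether Bst2 (423 and 193 CPM) and Ifi27l2a (2146 and 845 CPM) were lower as well. Irf7, a factor that amplifies the interferon response, stood at 178 and 92.2 CPM and was not called.

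The promoters of Rsad2, Ifit3, Isg15 and Ifit1 are shown because these genes were lower together. The interferon-stimulated response element, searched as GAAANNGAAA on either strand (read as TTTCNNTTTC on the other), is in capitals, and overlapping matches run together. Each sequence is the 160 bases before the RefSeq start on the gene's strand in build GRCm38.p6: chr12:26456453-26456612 (minus strand), chr19:34583369-34583528 (plus), chr4:156200819-156200978 (minus) and chr19:34640729-34640888 (plus).
Rsad2: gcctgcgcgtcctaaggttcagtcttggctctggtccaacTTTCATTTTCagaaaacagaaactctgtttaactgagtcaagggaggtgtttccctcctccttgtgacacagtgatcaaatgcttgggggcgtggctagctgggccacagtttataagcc
Ifit3: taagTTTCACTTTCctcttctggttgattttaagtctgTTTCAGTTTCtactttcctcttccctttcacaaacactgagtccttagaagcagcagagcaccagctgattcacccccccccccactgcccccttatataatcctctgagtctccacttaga
Isg15: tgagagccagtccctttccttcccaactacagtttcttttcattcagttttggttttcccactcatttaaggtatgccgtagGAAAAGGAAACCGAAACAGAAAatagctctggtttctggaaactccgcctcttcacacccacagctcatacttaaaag
Ifit1: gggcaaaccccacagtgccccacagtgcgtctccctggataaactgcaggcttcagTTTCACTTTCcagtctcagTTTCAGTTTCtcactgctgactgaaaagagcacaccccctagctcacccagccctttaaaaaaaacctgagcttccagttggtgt
The Isg15 window held 3 overlapping matches, the Ifit3 and Ifit1 windows 2 each and the Rsad2 window 1. In the 250 bases before a start, the motif was found for 11 of 14 matched genes of the 16 type I interferon genes that were lower, and for 18 of 29 matched genes of the 34 measured. It was found for 3.46% of all 27025 genes of the RefSeq table and for 94 of 2337 matched genes among those tested (4.02%). Among called genes, it was found for 3 of 38 matched lower genes outside the list and for 2 of 32 matched higher genes. A match is a description of letters and not a shown binding site.

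The interferon genes were carried by fewer members in knockout than in flox. In flox, 22 members had Ifit3, and of these 20 had Isg15, 16 had Rsad2 and 18 had Ifit1. Of the 37 flox members without Ifit3, 13 had Isg15, 1 had Rsad2 and none had Ifit1. Median depths were 7284 and 5828 UMIs. In knockout 3 of 67 members had Ifit3, against 2.09% of B cells there and 4.78% in flox. Per 10000 UMIs of a cell, the list summed to a median of 50.4 UMIs in flox (highest 558) and 24.8 in knockout (highest 295). The cells overlapped widely, and 31 of 59 flox against 14 of 67 knockout members lay above 40. In sub-clusters of the members, described further on, 16 flox and 4 knockout cells formed a group led by these genes. Without that group the list's median was -0.05, with 12 of 22 measured members below 0. Since the group was defined by these very genes, its removal lowers the difference by construction.

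Within the sexes the interferon list was lower in both. In male cells 33 of 33 measured members were below 0, with a median of -1.99, and in female cells 18 of 20, with a median of -1.06. Isg15 stood at 1779 CPM in the 13 male flox members and 205 CPM in the 39 male knockout members, against 333 and 38.3 CPM in female cells. Slfn5 stood at 774 and 113 CPM in male cells and at 164 and 28.8 CPM in female cells. Flox male cells thus had the highest levels. The interferon-gamma list had 16 of 19 measured members below 0, with a median of -0.39. The immunity-related GTPases Iigp1 (356 and 87.9 CPM) and Igtp (150 and 55.7 CPM) and the guanylate-binding protein gene Gbp7 were called lower, whereas Gbp2 (72.2 and 68.6 CPM) and Gbp4 (95.4 and 94.3 CPM) were not.

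**Figure D3:**
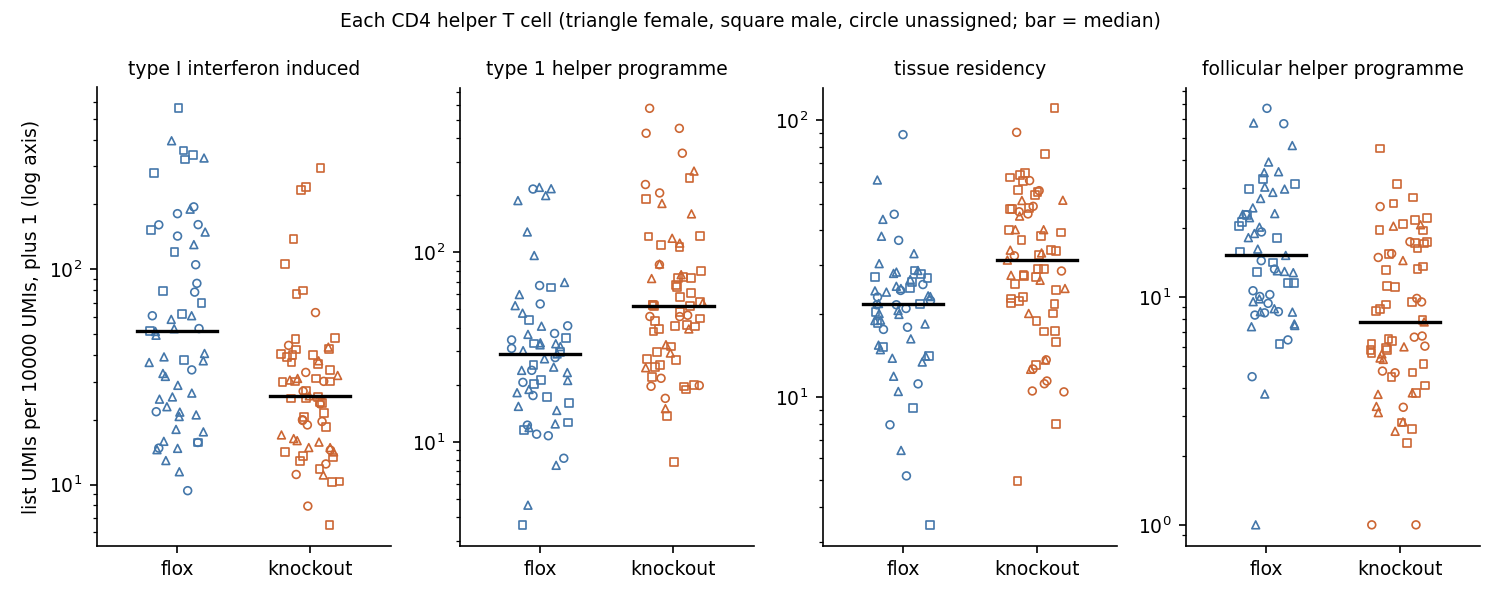
Summed UMIs of 4 gene lists in each helper cell, per 10000 UMIs of the cell with 1 added, on a log axis, by library. Triangles are female, squares male and circles unassigned cells, and bars mark the median. The medians of the type I interferon list are 50.4 in flox and 24.8 in knockout, and those of the type 1 helper list 28.1 and 51.3, before the 1 is added, with wide overlap of the cells in every panel.

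Cytokine transcripts of the type 17 and type 2 programmes were captured in few members, while some of their other genes were more widely expressed. Of 5 measured type 17 genes 2 were above 0 and 3 below, with none called. Of 4 measured type 2 genes 3 were above 0 (median 0.58), and Ccr8 was called higher by its interval alone. Il17a had 7 UMIs in 2 flox cells and 14 UMIs in 1 knockout cell. Maf, a factor of several helper types, stood at 588 and 431 CPM and Rora at 291 and 452 CPM, and neither was called. Il4, Il5 or Il13 had a UMI in 0 of 59 flox members, which allows up to 5.08% of cells with a captured UMI (3 counts) and sets no limit on cells expressing these genes, and in 5 of 67 knockout members (7.46%, 2.47 to 16.6). Gata3, the type 2 factor that T cells also use in general, stood at 113 and 103 CPM. Ccr8, a receptor of some type 2 and resident cells, had 1 UMI in flox and 22 UMIs in 11 knockout cells. Areg stood at 61.9 and 114 CPM, with 52.8% of the knockout UMIs in 1 cell. The cytokine Il10 had 48 UMIs in flox, 77.1% of them in 1 cell, and 2 in knockout.

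Genes of memory and recirculation, of cytokine signalling and of metabolism completed the comparison. Of 12 measured memory and recirculation genes 9 were below 0 (median -0.35). S1pr1, the receptor that lets T cells leave tissue along sphingosine-1-phosphate, stood at 431 CPM (368 to 501) and 159 CPM (125 to 199), 2.72-fold lower (2.05 to 3.62). Ly6c2 was called lower at 212 and 40.7 CPM, in 9 and 4 cells, but it stood at 68.4 and 57.5 CPM in female cells, and its reads may be shared with close relatives. Tcf7, which keeps memory potential, stood at 237 and 161 CPM, Il7r at 934 and 832 CPM and Cd44, the antigen-experience marker, at 209 and 236 CPM, none called. Of 27 cytokine receptor and signal genes 15 were above and 12 below 0. The kinase Jak2 (343 and 122 CPM), the interleukin-6 receptor Il6ra (101 and 32.2 CPM) and the feedback inhibitor Socs3 (325 and 148 CPM) were lower. Immediate early and NF-kB genes had 20 of 29 above 0 (median 0.18), with the phosphatase Dusp2 called (224 and 508 CPM). Heat shock genes had a median of 0.02, glycolysis genes of 0.00, and T cell receptor and adaptor genes of 0.12. Of the proliferation list only 3 of 16 members were measurable.

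**Figure D4:**
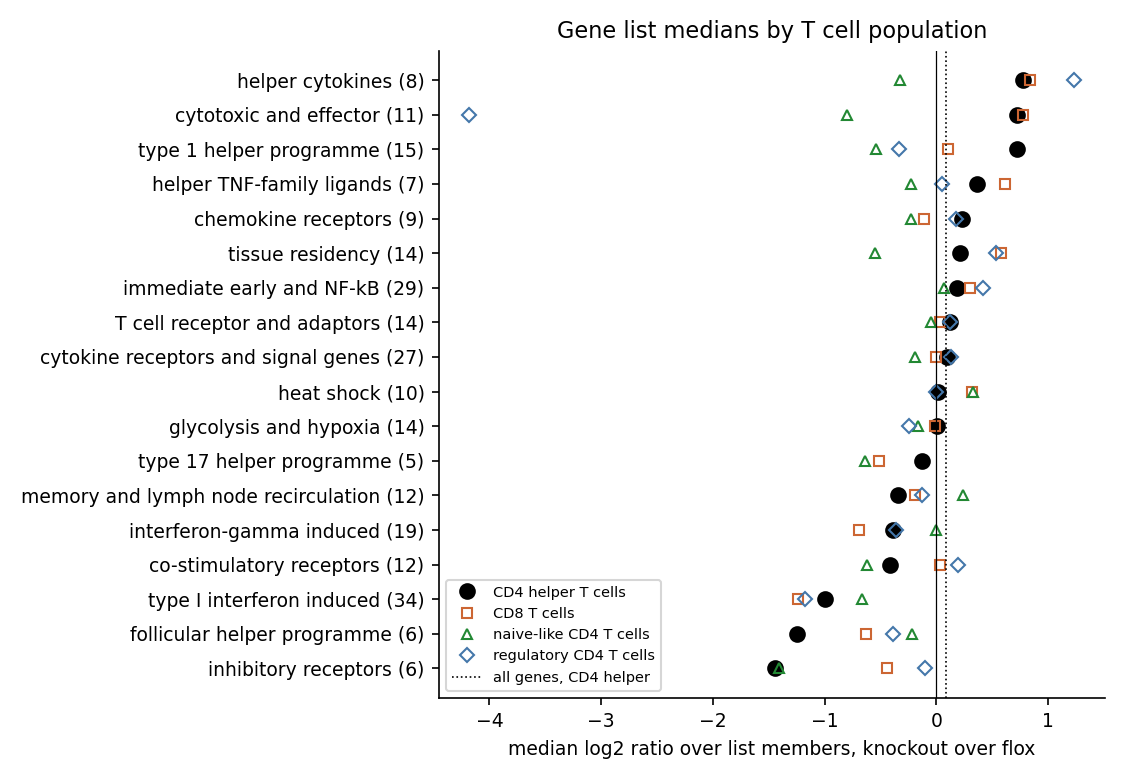
Median log2 ratio, knockout over flox, of each gene list with at least 5 measured members, in helper cells (black circles), CD8 T cells (orange squares), naive-like CD4 cells (green triangles) and regulatory CD4 cells (blue diamonds). The number after a list counts its measured members in helper cells, and the dotted line marks their all-gene median of 0.09. The type I interferon list lies left of 0 in all 4 populations, from -1.24 in CD8 to -0.66 in naive-like cells.

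Several of these differences were also seen in other T cells of the same libraries. Of the lower genes without the rule gene, 47 of 55 were lower in CD8 T cells, where 43.1% of the same tested genes were, and 38 of 43 higher genes were higher there (56.9%). In naive-like CD4 cells 45 of 54 lower genes were lower (65.4%), but only 8 of 39 higher genes were higher (34.6%). In regulatory cells the counts were 40 of 53 (51.5%) and 13 of 32 (48.5%). All these populations come from the same 2 libraries, so they repeat any trait of a library. In CD8 cells Itga1 stood at 82.1 and 257 CPM, Tbx21 at 136 and 244 CPM and Cxcr6 at 272 and 505 CPM. Pdcd1 (246 and 363 CPM) and Tnfsf8 (15.7 and 34.6 CPM), lower in knockout helper cells, were higher in knockout CD8 cells. In regulatory cells, 16 of them in knockout, the type 1 genes went the other way. There Tbx21 stood at 125 and 27.2 CPM, Ifng at 349 and 109 CPM and Cxcr6 at 73.1 and 0 CPM. In naive-like cells Tbx21 stood at 39.7 and 24.3 CPM and Itga1 at 10.7 and 17.8 CPM. Trat1 stood at 6.84 and 34.6 CPM in CD8, 23.6 and 118 CPM in regulatory and 102 and 133 CPM in naive-like cells. P2rx7 stood at 7.52 and 21.2 CPM, 28.3 and 72.5 CPM, and 32.1 and 16.2 CPM in the same order. The interferon list had a median of -1.24 in CD8, -0.66 in naive-like and -1.17 in regulatory cells. The follicular list had -0.63 in CD8, -0.22 in naive-like and -0.39 in regulatory cells against -1.24 in helper cells. The differences between these medians were not tested.

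Among themselves the members fell into 4 sub-clusters, described by their leading genes. Sub-cluster 1 (46 cells, 5 flox and 41 knockout) was led by Itga1, P2rx7, Trat1 and Cxcr6. Sub-cluster 2 (39 cells, 29 and 10) was led by Rflnb, Gpm6b, Adk, Cd9 and Tbc1d4. Sub-cluster 3 (21 cells, 9 and 12) was led by S1pr5, Cx3cr1, Klrd1, Ccl5 and Zeb2, genes known from circulating effector cells. Sub-cluster 4 (20 cells, 16 and 4) was led by Ifit3b, Ifit3, Ifit1 and Rsad2. The sub-clusters returned with a Jaccard overlap of at least 0.95 at resolution 0.5 and with another seed, but at resolution 1.2 they split into 7. Their genes are those that differ between the libraries, so their sizes are no separate result, and a sub-cluster mostly of 1 library may be that library. Ccl5 stood at 15853 CPM in sub-cluster 3 and 757 CPM in the other members. Without sub-cluster 1, knockout over flox was 0.22 for the type 1 list, -0.06 for Ifng, 0.17 for Cxcr6 and 0.33 for Trat1, but 1.94 for Tbx21 and 1.69 for Itga1 (log2).

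Within a single library, where genotype is constant, several of the named genes went together in the library where they were high, and less plainly in the other. In knockout, Itga1 was present in 27 members. Of these 19 had P2rx7, 21 Cxcr6, 19 Tbx21 and 21 Ifng, against 12, 20, 18 and 18 of the 40 members without Itga1, with median depths of 7271 and 6693 UMIs. Ifit3 was present in 2 of the 27 and 1 of the 40. In flox only 5 members had Itga1, of which 1 had Tbx21 and 1 Ifng, against 13 and 17 of the other 54. Of the 5, 1 had P2rx7, 3 Cxcr6 and 4 Ifit3, against 6, 12 and 18 of the 54. In flox, Tbc1d4 was present in 36 members. Of these 29 had Slamf6, 24 Gpm6b, 21 Izumo1r and 17 Ikzf2, against 9, 4, 5 and 6 of the 23 without Tbc1d4, whose median depth was higher (5979 and 7037 UMIs). Others differed little: Pdcd1 was present in 18 of the 36 and 10 of the 23, Tnfsf8 in 15 and 9, and Spry1 in 15 and 8. In knockout, of 18 members with Tbc1d4 5 had Slamf6, 5 Izumo1r and 7 Gpm6b, against 10, 10 and 4 of the 49 without it. These pairs were chosen after the genes' values had been seen, and they are counts of captured UMIs.

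Captured T cell receptor segments were spread over many V genes. A beta-chain V segment was captured in 28 of 59 flox and 19 of 67 knockout members. It came from 17 segments in flox, led by Trbv2 in 5 cells, and from 13 in knockout, led by Trbv1 and Trbv19 in 3 cells each. Of the alpha chain, Trav3-3 was captured in 6 knockout members. A shared V segment does not show a shared clone.

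Markers of most other cell types were low in the members, and the sums of the natural killer and type 2 innate lymphoid lists rested on few genes. The natural killer list, at 46.4 and 457 CPM in members, stood at 436 and 1475 CPM in CD8 T cells and at 2.92 and 105 CPM in B cells. Most of its 213 UMIs in knockout members were Gzma, and its 18 UMIs in flox members came from 3 genes. The type 2 innate lymphoid list (7 genes) summed to 175 and 253 CPM in members against 54.0 and 80.7 CPM in CD8 T cells. In flox members all of it was Gata3 and Areg, with Il1rl1, Il13, Calca, Hs3st1 and Il5 at 0. In knockout members Hs3st1 was at 0, and 1 cell held 34 of the 118 UMIs. The part of these lists in the results was not tested. The B cell list (9 genes) summed to 72.2 CPM in flox and 34.3 CPM in knockout members against 8792 and 9058 CPM in B cells, with Cd79b and Ighd at 0 in both. The monocyte and macrophage list (11 genes) summed to 165 and 144 CPM, against 442 and 173 CPM in CD8 T cells and 785 and 528 CPM in B cells. Itgam and Adgre1 were at 0 in both libraries, and 7 genes in flox and 5 in knockout had UMIs. These lay in 33 of 59 flox and 42 of 67 knockout members, with at most 5 and 3 in 1 cell. Of its 2 measured members, the interval of 1 lay beyond 1.5-fold downward. Gamma-delta T markers summed to 10.3 and 64.3 CPM with Trdc and Sox13 at 0, and RPE markers to 12.9 and 8.58 CPM. The gamma-delta UMIs lay in 3 flox and 6 knockout members, with up to 9 in 1 knockout cell. Scrublet called none of the members a doublet. It called 17 of 3418 flox barcodes (0.497%) and 56 of 3982 knockout barcodes (1.41%).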

How the data were processed

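Libraries were made with a 10x Genomics 3' v2 kit, per the labels' protocols. The flox matrix lists 1002803 barcodes, more than the v2 barcode list holds, so its kit version is uncertain. Cell Ranger and the genome build mm10 were used, per the submitters' processing notes. The matrices were written by version 4 (flox) and 7.0.1 (knockout), per the file headers. The deposited values are counts of UMIs per gene and barcode. The flox matrix holds unfiltered barcodes and the knockout matrix 4096 called ones, so 1 filter was applied to both, with no doublet removal.

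UMIs were summed over the members of a library and scaled to CPM with numpy 2.4.6 and scipy 1.17.1. Levels have exact Poisson intervals, ratios conditional binomial intervals and shares Clopper-Pearson intervals. List log2 ratios have 0.5 UMIs added and leave out rule genes. Mitochondrial, ribosomal, sex-linked marker and receptor V genes were not called. Reference populations used the same filter. Sub-clusters came from Leiden clustering (scanpy 1.11.5, resolution 0.8, 1500 variable genes). The procedure was tested on simulated data. Named genes are list members, up to 12 called genes per direction outside the lists, up to 8 per direction against each T population and up to 6 per sub-cluster. Coordinates are from RefSeq. The members and lists were chosen with earlier results of these data known. Among the other settings tried, leaving out a sub-cluster was added after the data were seen.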

Additional observations from a re-analysis of the deposited data

Results flagged for a closer look

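The results for 2 genes and 1 list went opposite ways in the sexes, and the difference between the sexes was not tested. The knockout over flox ratio of Tnf was 0.478 among female cells and 32.4 among male cells, the latter from 23.1 CPM in 13 male flox cells. That of Cxcr3 was 0.428 and 2.21. The TNF-family ligand list, of which Tnf is a member, had a median log2 ratio of -0.50 in female and 0.42 in male cells.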

How the results depend on the processing

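No paired analysis was possible because each group has 1 library. Each value was recomputed under 21 alternatives, where they apply. Depth limits the class: 59 and 67 cells with a median of 2 Cd4 UMIs leave most genes under the level minima. The 56 lower and 43 higher genes became 10 and 10 with Foxp3, Ikzf2 and Ctla4 at 0 (11 and 27 cells), 23 and 8 in female cells, 34 and 16 with naive-like cells kept, 135 and 103 with no level minimum, 8 and 9 when cells were thinned to 2000 UMIs, and 20 and 18 without the Itga1 sub-cluster. The lower count was 31 with at least 2 Cd4 UMIs and 37 without the interferon sub-cluster. Fewer cells or UMIs were tested in each, save the naive-like and no-minimum settings. With no level minimum, every gene with at least 1 UMI was tested, hence more genes. For the naive-like setting the cause was not tested. The number of genes tested changed with the setting, so these counts are not shares of the same genes as the 56 and 43. With thinning the share of helper cells differed by -0.87 points of all cells and -2.47 points of T cells. The interferon list's median was -1.99 in male cells and -0.047 without the interferon sub-cluster, and between -0.53 and -1.34 under the other alternatives.

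The following log2 ratios changed direction, and the cause was not tested. With Foxp3, Ikzf2 and Ctla4 at 0 they were Aff3 0.20, Ccl5 -0.34, Cd9 0.15, Cx3cr1 -0.041, Eea1 0.42, Gpm6b 0.15, Izumo1r 0.78, Nkg7 -0.50, Tnfrsf4 0.60 and Tnfsf8 2.80, with medians of -0.27 for the cytotoxic and -0.22 for the type 1 list. Without the interferon sub-cluster they were Bst2 0.18, Daxx 0.42, Ifit1 0.43 and Ifit3b 0.10. In female cells they were Ccl4 -1.36, Cd40lg -0.12 and Tnf -1.01, and in male cells Serpinb9 -0.18 and Stmn1 -0.57. Without the Itga1 sub-cluster they were Cd40lg -0.20 and Ifng -0.057. Of the other recomputed gene and list values, 1519 moved by less than their counting interval and 260 by more. Some of these, slightly lower in knockout before, also changed sign. With Foxp3, Ikzf2 and Ctla4 at 0 Tnfsf11 was at 2.10 and Il7r at 0.062. Without the Itga1 sub-cluster Gata3 was at 0.54.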
